A study of Mus musculus with 2 samples.

Results

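Melanocytes of the embryonic eye were examined in 2 single-cell RNA libraries of mouse eye cups at E17.5. They were chosen by their RNA: a cell counted as a melanocyte when it held at least 1 UMI (unique molecular identifier, 1 captured RNA molecule) of *Pax3*, at least 1 of *Sox10*, and at least 0.1% of its UMIs in the pigment genes *Dct*, *Pmel*, *Mlana* and *Tyr* together. This rule found 101 melanocytes among 36146 cells, 66 of 17017 in the *Myrf* humWT/humWT library and 35 of 19129 in the *Myrf* humdG/humdG library. The study asked what a C-terminal variant of MYRF, a membrane-bound transcription factor of the RPE (retinal pigment epithelium), does in the developing eye. In both strains the last *Myrf* exon was humanized on both alleles. The humWT allele carries the normal human sequence and serves as the control, and the humdG allele carries the C-terminal frameshift dG, which is linked to isolated nanophthalmos, a small eye of normal build. Each library is 1 pool of 3 eye cups, so a genotype is 1 sample. The study's text counts 3 mice and 6 eyes and leaves the cornea on. By the sample records the cornea, lens and optic nerve had been taken off. Those records also speak of Rx>cre *Myrf* fl/fl animals, so their dissection may not be that of these 2 libraries.

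A genotype has no replicate here, so differences between humWT and humdG are given as sizes, with no test. An exact paired test over 2 libraries could not give a p below 0.5. To give a level, the UMIs of all cells of a class were added up and scaled to counts per 1000000 UMIs (CPM). Intervals are 95% and exact (Poisson for a level, conditional binomial for a ratio, Clopper-Pearson for a share) and hold the error of counting alone; what varies from embryo to embryo or between dissections is outside them. The assay reads the 3′ end of RNA, so CPM needs no scaling by length, but capture differs between genes and levels are best compared within a gene.

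Melanocytes of the choroid and iris arise from the neural crest and migrate into the eye, whereas the RPE, the other pigment cell of the eye, forms from the wall of the optic cup. PAX3 and SOX10 switch on *Mitf*, the master regulator of pigment cells, and the receptors KIT and EDNRB carry the survival and migration signals of the lineage. Both pigment cell types build melanosomes, in which tyrosinase (TYR), TYRP1 and DCT make melanin on a scaffold of PMEL. MITF is known to bind an E-box with the letters CATGTG, most often preceded by T, in promoters of pigment genes.

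Those letters were looked for in RefSeq promoter windows, from 250 bases before to 50 after each gene's start on GRCm38.p6, because genes of melanin synthesis were among those highest above other cells. The letters were CATGTG and the longer TCATGTG, which contains it, on both strands. Of 10 genes of melanin synthesis 8 had a window, and 7 of those 8 held CATGTG and 6 held TCATGTG (75%). Among all 27025 genes with a window, 15.9% held CATGTG and 4.31% held TCATGTG. The letters were taken from what is known of pigment gene promoters, so matches in the melanin list are not independent of that choice. Windows of 30 bases around a match are shown 5′ to 3′ on the strand of the gene, with the motif in capitals (CACATGA is TCATGTG on the other strand). They are given for members of the melanin list and for *Trpm1* and *Kcnj13*, lineage genes described further on: *Dct* at chr14:118052461-118052490 and chr14:118052379-118052408 (both minus strand), *Tyr* at chr7:87493516-87493545 (minus), *Tyrp1* at chr4:80834155-80834184 (plus), *Oca2* at chr7:56239561-56239590 (plus), *Slc24a5* at chr2:125068102-125068131 (plus), *Trpm1* at chr7:64153682-64153711 (plus) and *Kcnj13* at chr1:87394824-87394853 (minus).
Dct, upstream match: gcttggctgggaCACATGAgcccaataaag
Dct, downstream match: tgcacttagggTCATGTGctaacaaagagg
Tyr: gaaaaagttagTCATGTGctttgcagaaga
Tyrp1: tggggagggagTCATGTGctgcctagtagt
Oca2: ttgagcttgctaCACATGgctggaattttc
Slc24a5: aaggagactgctCACATGAttcagcataag
Trpm1: ccaaatcctcaTCATGTGcccaccccaaac
Kcnj13: agcattcttttcCACATGAtcagagctaat

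A further start of *Trpm1* held CATGTG alone and is not shown. A match is a description of the letters and not a bound site. *Slc7a11*, the cystine importer, held TCATGTG too, yet stood at 1.60 CPM and 1.94 CPM in the melanocytes of humWT and humdG. *Mc1r*, the melanocortin receptor gene, held it as well and was found in 7 of 66 and 10 of 35 melanocytes. The windows of both genes are not shown. Of 8 melanocyte receptors with a window 1 held both motifs (12.5%), and this was *Mc1r* again. *Slc45a2* and *Gpr143* had no window in the table. Neither motif was found in the 8 melanocyte transcription factors with a window, and both were found in 1 of 16 genes of melanosome structure and transport (*Hps1*). Of 19 other lineage genes 5 held CATGTG and 3 of these TCATGTG (*Trpm1*, *Kcnj13* and *Tspan10*). Of 13 RPE markers 5 held CATGTG (38.5%) and 0 held TCATGTG. Of the 20 genes that led the melanocytes over all other cells 15 had a window, of which 1 held CATGTG and 0 held TCATGTG.

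Melanocytes were rare and deep. They made up 0.388% of humWT cells (0.300 to 0.493) and 0.183% of humdG cells (0.127 to 0.254). The median melanocyte held 28752 UMIs in humWT (1995 to 61047) and 25102 in humdG (5482 to 177084), against 3773 and 2567.5 UMIs in the other cells. The rule asks for UMIs of a pair of transcription factors, which shallow cells often miss: among cells with at least 5000 UMIs the shares were 0.977% and 0.556%, and after thinning every cell to 2000 UMIs they were 0.0916% and 0.0340%. The share was lower in humdG under each of these counts, and a share of fewer cells cannot be told apart from the makeup of a single pool. As only 1 pool was made per genotype, embryo, dissection and genotype cannot be told apart in any value given here.

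The pigment genes that chose the cells filled a median of 2.43% of a melanocyte's UMIs in humWT (0.1003 to 5.29) and 2.83% in humdG (0.106 to 7.79). The plot of pigment share against depth shows that most cells lay far above the threshold. In humWT the 3 cells just inside stood at 0.1003%, 0.117% and 0.120%, and the 3 cells with *Pax3* and *Sox10* just outside stood at 0.0739%, 0.0404% and 0.0379%. In humdG the cells just inside stood at 0.106%, 0.121% and 1.05%, and those just outside at 0.0216%, 0.0215% and 0.0156%. Cells with both factors but pigment genes under the threshold numbered 14 in humWT and 6 in humdG. In those 14 and 6 cells *Dct* stood at 152 CPM and 82.1 CPM.

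**Figure D1:**
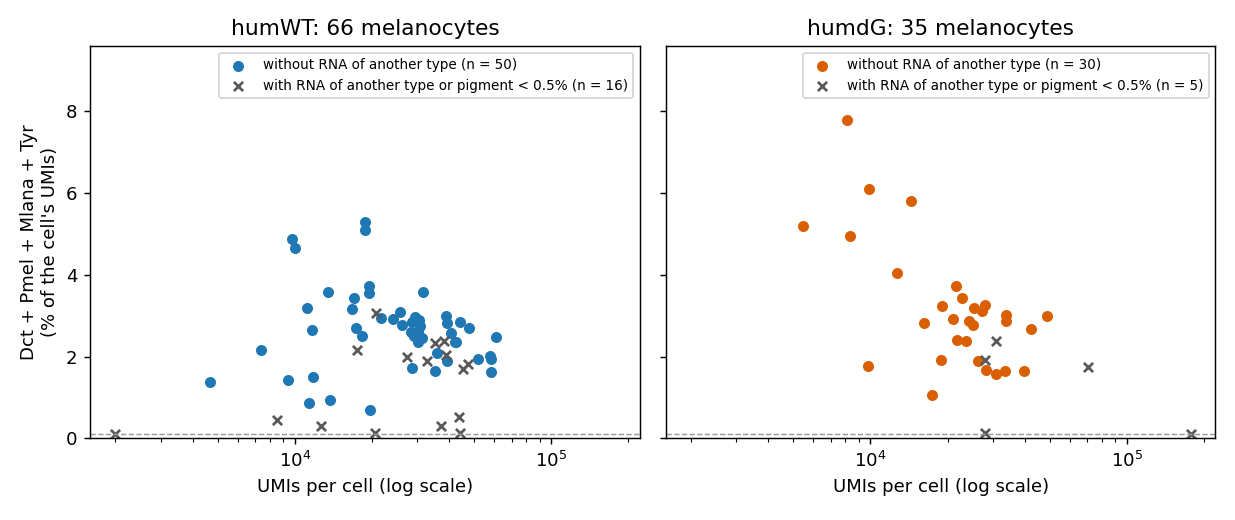
Each point is 1 melanocyte, with its UMIs on a log axis and the share of UMIs in *Dct*, *Pmel*, *Mlana* and *Tyr* in percent on the other, in 1 panel per library. Crosses are cells with RNA of another cell type or under 0.5% pigment RNA (16 of 66 and 5 of 35), and the dashed line is the 0.1% threshold, above which the medians are 2.43% and 2.83%.

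Free RNA in the droplets can add pigment UMIs to any cell, and the level in cells of another type was read in red blood cells, which do not make pigment. In 457 and 359 cells with at least 20% globin UMIs, the same 4 genes took 0.0277% and 0.0181% of UMIs. These cells were shallower than melanocytes, with medians of 4616 and 3819 UMIs. Their shares and CPM therefore do not give the number of UMIs that free RNA adds to a melanocyte. Summed over the melanocytes they took 2.27% and 2.16%, and over all other cells, RPE included, 0.0665% and 0.0461%. Scrublet called 1 cell a doublet in the whole series, too few for the caller to have worked, so doublets were not removed by it. Of the melanocytes 0 were among the 5% of cells with the highest scores. That includes the cells with RNA of other types described below, so the scores cannot show that a melanocyte was a single cell. Of 93 barcodes that occurred in both libraries, 0 were melanocytes in both. The barcodes of 2 melanocytes occurred in the other library as well.

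The label was checked against 7 melanocyte markers. All 7 were at least 2-fold above the other cells in both libraries, where 5.84% of the 10222 genes with enough UMIs were (597 genes) and 4.83% were at least 2-fold below (494 genes). The same shares belong beside each later count of list genes against the other cells. 6 of the 7 are part of the rule, so only *Kit*, the receptor for stem cell factor, is free of it. *Kit* stood at 115 CPM in humWT melanocytes (100 to 131) and 105 CPM in humdG melanocytes (85.8 to 126), against 20.03 CPM and 20.001 CPM in the other cells. It was found in 58 of 66 and 28 of 35 melanocytes. After thinning to 2000 UMIs it remained in 23.1% (13.5 to 35.2) and 25.7% (12.5 to 43.3) of them, against 1.98% and 1.497% of red blood cells.

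Some gated cells also carried RNA of other cell types. In humWT 16 of 66 melanocytes and in humdG 5 of 35 had under 0.5% pigment RNA, at least 0.5% of their UMIs in the marker list of another type, or mast cell RNA. In humWT 8 of them carried mesenchyme markers, 5 RPE markers and 3 blood and vessel markers, and 1 held 2444 UMIs of the mast cell genes *Cma1*, *Cpa3*, *Tpsb2* and *Hdc*. In humdG 2 carried mesenchyme markers and 1 blood and vessel markers. One humdG cell of 177084 UMIs with a pigment share of 0.106% supplied 17.1% of all UMIs of the humdG melanocytes. Values are therefore also given for the 50 and 30 melanocytes without RNA of another type, a set chosen after the values were seen. That name means under the limits given here and not free of such RNA. For example, 1 humWT cell of the set had 0.472% of its UMIs in mesenchyme markers.

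The summed level of each marker list shows how much those cells brought in. The 16 RPE markers together stood at 1386 CPM in humWT melanocytes and 263 CPM in humdG melanocytes, at 156 CPM and 162 CPM without the cells named, and at 570 CPM and 416 CPM in the other cells. *Ttr*, the transthyretin gene and the most abundant of them, stood at 476 CPM and 57.1 CPM, and at 60.03 CPM and 73.0 CPM without those cells. *Rpe65* and *Lrat*, enzymes of the visual cycle, had 0 UMIs in the melanocytes of both libraries, but also 0 in the RPE gate described further on, so they do not tell the cell types apart at this depth. In that gate the list stood at 8562 CPM and 7832 CPM.

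The 12 mesenchyme markers, led by *Col1a1*, stood at 4044 CPM and 1766 CPM in all melanocytes, at 803 CPM and 189 CPM without those cells, and at 14956 CPM and 6772 CPM in the other cells. In red blood cells the mesenchyme list reached 3094 CPM and 1239 CPM, above the melanocytes without RNA of another type. The 13 retina markers stood at 235 CPM and 858 CPM, at 137 CPM and 464 CPM without those cells, and at 400 CPM and 914 CPM in red blood cells. The blood and vessel list stood at 2189 CPM and 6148 CPM, and at 764 CPM and 1076 CPM without those cells, almost all of it globin. The muscle list stood at 169 CPM and 34.4 CPM without those cells, led by *Ttn*. The surface epithelium list summed to 174 CPM and 99.7 CPM. Of its 4 genes that could be compared, only *Cdh1*, the E-cadherin gene, was at least 2-fold above the other cells in both libraries. It stood at 35.3 CPM and 52.3 CPM, against 4.45 CPM and 2.93 CPM in the other cells.

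**Figure D2:**
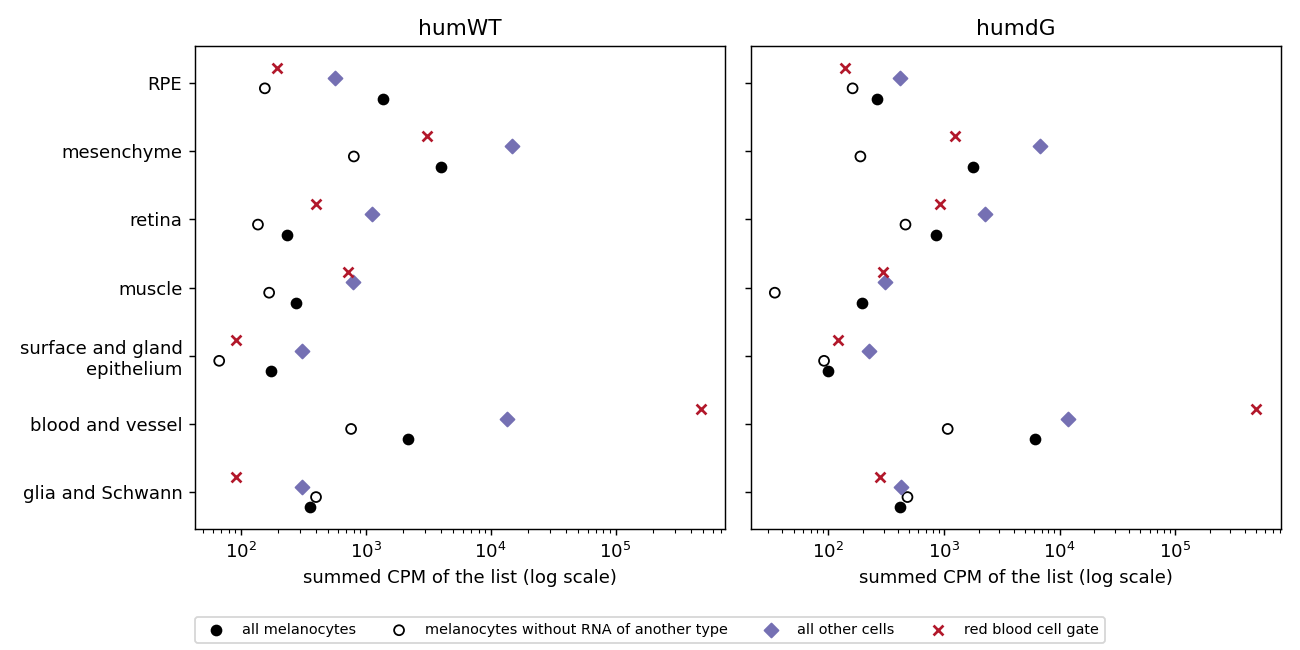
Summed CPM on a log axis of 7 marker lists in all melanocytes, melanocytes without RNA of another type, all other cells and red blood cells, 1 panel per library. The RPE list falls from 1386 CPM to 156 CPM in humWT when the 16 cells are left out, and from 263 CPM to 162 CPM in humdG when 5 are.

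Of 10 transcription factors of the lineage that could be compared, *Pax3*, *Sox10*, *Mitf*, *Tfap2a* and *Sox5* were at least 2-fold above the other cells in both libraries and *Tfap2b* was at least 2-fold below. *Pax3* and *Sox10* are required by the rule, so these 2 of the 5 were fixed by it. *Mitf* stood at 631 CPM in humWT (596 to 668) and 541 CPM in humdG (497 to 588). That was 15.3-fold (14.3 to 16.3) and 25.5-fold (23.2 to 28.0) the level of the other cells. *Tfap2a*, the AP-2α gene that works with *Mitf* in the lineage, stood at 77.5 CPM and 78.4 CPM, against 14.5 CPM and 26.6 CPM in other cells. *Sox5* stood at 229 CPM and 280 CPM. *Foxd3*, which keeps crest cells in an early and glial state, stood at 7.48 CPM and 13.6 CPM in melanocytes and at 2.61 CPM and 1.95 CPM in the other cells. *Lef1* and *Snai2* had 2 and 6 UMIs in humWT, and 1 and 2 in humdG.

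Among the receptors, *Ednrb* had the highest CPM. The endothelin B receptor gene stood at 595 CPM in humWT melanocytes (561 to 631) and 745 CPM in humdG melanocytes (694 to 800), 16.4-fold and 23.2-fold the level of the other cells. *Met*, the receptor for hepatocyte growth factor, stood at 306 CPM and 242 CPM, and *Erbb3*, a neuregulin receptor of crest cells, at 36.3 CPM and 48.4 CPM. *Gpr143*, a receptor in the melanosome membrane, stood at 140 CPM and 174 CPM. With *Kit*, these made 5 of 9 receptors at least 2-fold above the other cells in both libraries, and *Pdgfra*, a receptor of mesenchyme, was at least 2-fold below. *Mc1r*, the melanocortin receptor, was sparse: 11 and 14 UMIs in 7 of 66 and 10 of 35 cells.

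Of 4 ligands of the lineage that could be compared, 0 were at least 2-fold above the other cells in both libraries and 1, *Edn3*, the ligand of EDNRB, was at least 2-fold below. *Edn3* stood at 8.55 CPM and 4.84 CPM in melanocytes and at 35.8 CPM and 15.3 CPM in the other cells. *Kitl*, the ligand of KIT, stood at 27.8 CPM and 18.4 CPM, against 65.8 CPM and 34.9 CPM. The receptor genes *Ednrb* and *Kit* thus stood above the other cells, and the genes of their ligands stood at lower CPM in melanocytes than in the other cells, by under 2-fold for *Kitl* in humdG.

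Melanin synthesis genes were abundant. The 10 genes of that list summed to 20811 CPM in humWT melanocytes and 18361 CPM in humdG melanocytes, against 577 CPM and 419 CPM in the other cells and 231 CPM and 160 CPM in red blood cells. 7 of the 8 that could be compared were at least 2-fold above the other cells. *Dct* and *Tyr* are part of the rule, and *Dct* alone makes up most of that sum, so the sum and 2 of the 7 were shaped by the choice of cells. *Dct* stood at 14428 CPM and 13316 CPM and *Tyr* at 876 CPM and 764 CPM. *Tyrp1*, which is not part of the rule, stood at 2508 CPM in humWT (2436 to 2580) and 1631 CPM in humdG (1554 to 1711), 47.1-fold and 39.2-fold the other cells. The melanosomal ion carriers *Slc24a5*, *Oca2* and *Slc45a2* stood at 1555 CPM, 664 CPM and 565 CPM in humWT. In humdG they stood at 1530 CPM, 495 CPM and 358 CPM. *Slc45a2* had the highest ratio to other cells of the list, 105-fold and 112-fold.

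Of the genes of melanosome structure and transport, 12 of 18 were at least 2-fold above the other cells and none was 2-fold below in both. *Pmel* and *Mlana* are part of the rule, so these 2 of the 12 were fixed by it. *Rab38*, a small GTPase that brings enzymes to the melanosome, stood at 502 CPM and 459 CPM, against 7.504 CPM and 4.56 CPM in the other cells. *Mlph* and *Myo5a*, which with *Rab27a* tether melanosomes to actin, stood at 183 CPM and 325 CPM in humWT and at 190 CPM and 382 CPM in humdG. *Lyst*, the lysosomal trafficking regulator, stood at 366 CPM in both libraries. The complex genes *Hps5*, *Bloc1s5* and *Vps33a* were within 2-fold of the other cells in both libraries.

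Of 16 other genes known from melanocytes that could be compared, 14 were at least 2-fold above the other cells and *Fabp7*, a fatty acid carrier of crest glia, was at least 2-fold below. *Ptgds*, a prostaglandin D synthase, stood at 5985 CPM and 5867 CPM. *Trpm1*, a cation channel gene whose intron holds a microRNA that MITF controls, stood at 720 CPM and 712 CPM. *Cited1*, a transcriptional coactivator, stood at 517 CPM and 634 CPM against 8.58 CPM and 8.72 CPM in the other cells. *Mcoln3*, a lysosomal cation channel, stood at 118 CPM and 123 CPM and had 0 UMIs in the RPE gate.

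The 20 genes with the highest ratio to all other cells, taking the lower of both libraries, were led by a pair of carbonic anhydrases and a peptide hormone. *Car4*, a carbonic anhydrase of the cell surface, stood at 198 CPM in humWT melanocytes (179 to 220) and 164 CPM in humdG (140 to 190), 416-fold (316 to 556) and 492-fold (343 to 723) the other cells. *Car6*, a secreted carbonic anhydrase, stood at 99.4 CPM and 82.3 CPM, 321-fold and 327-fold. *Cck*, the cholecystokinin gene, stood at 401 CPM and 414 CPM, 337-fold and 318-fold. Both connexin genes of the list, *Gjb6* and *Gjb2*, stood at 32.6 CPM and 91.9 CPM in humWT and at 25.2 CPM and 81.3 CPM in humdG.

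The rest of the 20 genes included 9 genes with clone or model names. *Art5*, an ADP-ribosyltransferase, stood at 128 CPM and 211 CPM, and *Gsta1*, a glutathione transferase, at 95.1 CPM and 111 CPM. *Mcoln3*, *Slc45a2*, *Pax3* and *Mlph* were the members of the lists among them. The genes with clone or model names were *Gm10067*, *G630064G18Rik*, *A830019P07Rik*, *E330034G19Rik*, *Gm3776*, *Gm47865*, *D7Ertd443e*, *Gm13963* and *Gm26658*. *Gm13963* was the most abundant of them, at 249 CPM and 260 CPM. No function is given for these names here.

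Melanocytes were also compared with RPE, the other pigment cell. The RPE gate held 50 and 43 cells with *Rlbp1*, *Otx2* and at least 0.5% pigment RNA but neither *Pax3* nor *Sox10*, so these properties are fixed by the gates. It leaves out cells with *Sox10*, of which many held RPE markers, as described further on. The gated cells were shallow, with medians of 6001 and 6085 UMIs, and held the mesenchyme list at 5332 CPM and 2796 CPM. How far RNA of other cells lowered the RPE levels was not tested. *Pmel* was close to its RPE level in humWT and below it in humdG, at 6532 CPM in humWT melanocytes against 7008 CPM in RPE, and 6583 CPM against 9302 CPM in humdG. *Tyr* stood at 0.873 of its RPE level (0.790 to 0.966) in humWT and 0.577 of it (0.519 to 0.643) in humdG, and *Ptgds* at 0.949 and 0.724. *Dct*, by contrast, was 3.32-fold (3.18 to 3.47) and 2.02-fold (1.94 to 2.10) the RPE level.

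6.08% of 10028 genes were at least 2-fold above RPE in both libraries and 7.18% at least 2-fold below. *Slc45a2* was 6.20-fold (4.61 to 8.52) and 3.98-fold (2.88 to 5.64) the RPE level, and *Slc24a5* 2.55-fold and 2.00-fold. These and *Dct* were 3 of 9 melanin genes above RPE, and *Slc7a11* was 1 of 9 below. *Ednrb* was 6.53-fold (4.86 to 8.97) and 7.72-fold (5.70 to 10.7), and with *Erbb3* and *Met* made 3 of 10 receptors above RPE. *Mitf* was 1.64-fold and 1.72-fold. *Kit* was 1.93-fold (1.31 to 2.93) and 1.29-fold (0.879 to 1.92), so its difference from RPE was within counting error in humdG. *Rab38*, *Mlph*, *Myo5a*, *Hps3* and *Lyst* were the 5 of 17 melanosome genes above RPE.

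Of 15 other lineage genes 7 were above RPE. *Kcnj13*, a potassium channel gene that is best known from the RPE, was 3.99-fold (2.81 to 5.87) and 5.92-fold (4.03 to 9.04) its RPE level in these melanocytes. *Cited1* had 0 UMIs in the humWT RPE and stood at 13.2 CPM in the humdG RPE. The melanocytes stood 87.0-fold above a floor of 3 UMIs set for the humWT RPE, and 48.2-fold above the humdG RPE. *Apoe*, a lipid carrier of RPE and glia, was the 1 lineage gene below RPE, at 0.476 and 0.341 of its level. Of 13 RPE markers 12 were below RPE in both libraries, of which *Rlbp1* and *Otx2* are required by the RPE gate. *Rlbp1*, the retinal-binding protein gene, stood at 50.8 CPM and 7.75 CPM against 490 CPM and 509 CPM. *Myrf* itself stood at 32.1 CPM and 5.81 CPM in all melanocytes, at 2.86 CPM and 0 UMIs without the cells with other RNA, and at 282 CPM and 272 CPM in RPE.

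**Figure D3:**
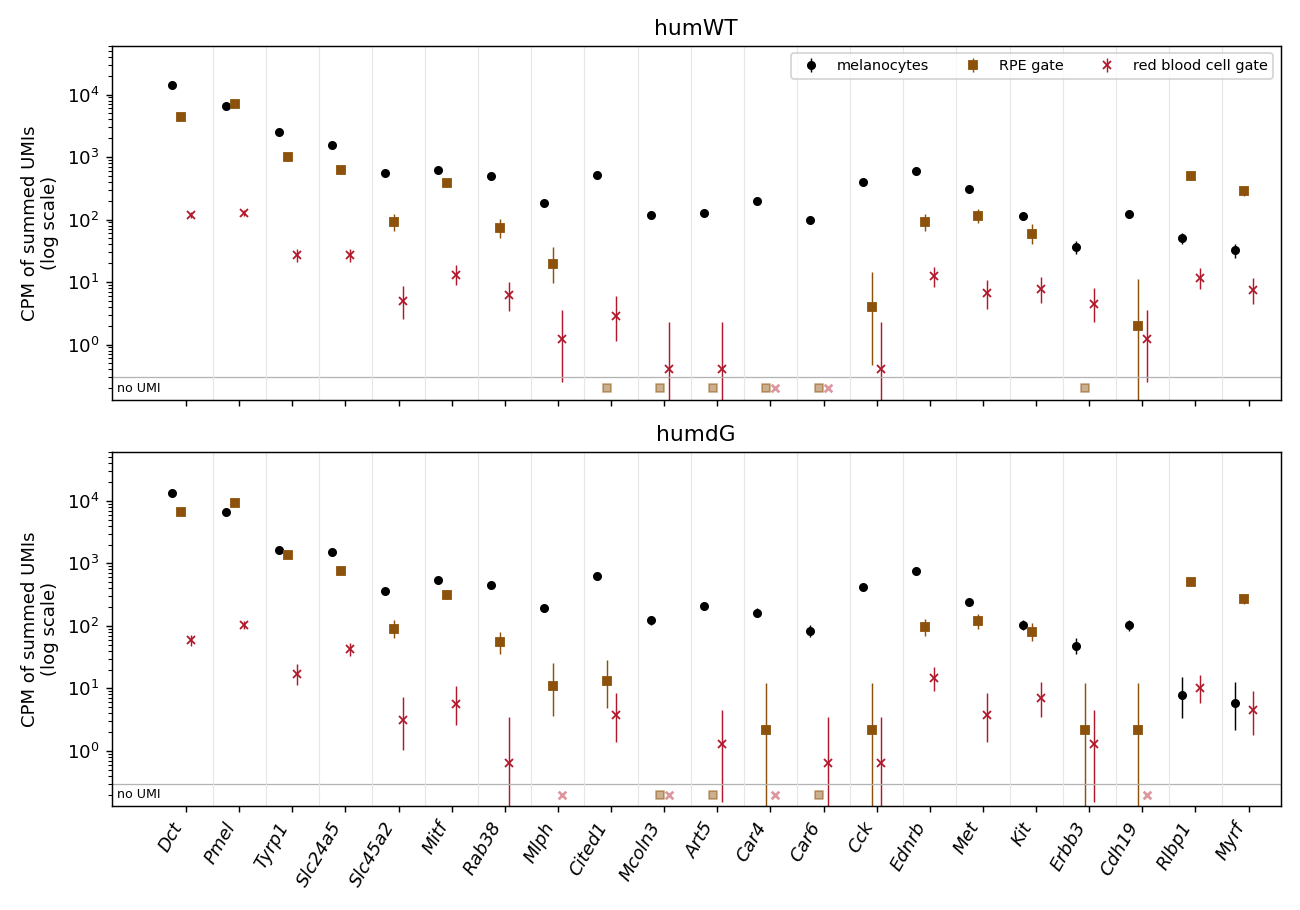
CPM on a log axis of 21 genes in melanocytes, RPE and red blood cells, 1 panel per library, with 95% Poisson intervals as bars and genes without a UMI in the bottom row. *Pmel* is high in both melanocytes and RPE, while *Cited1* (517 CPM and 634 CPM), *Cck* (401 CPM and 414 CPM) and *Car4* (198 CPM and 164 CPM) lie far above the other classes.

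The border with the RPE was also seen in cells that met only part of the rule. Cells with *Sox10* but no *Pax3* and at least 0.1% pigment RNA numbered 209 in humWT and 87 in humdG. They held *Rlbp1* at 578 CPM in both libraries, *Ttr* at 4563 CPM and 4040 CPM, and *Cited1* at 4.70 CPM and 16.0 CPM. *Rlbp1* was thus as high as in the RPE gate, and *Cited1* far below the melanocytes. Cells with *Pax3* but no *Sox10* and at least 0.1% pigment RNA numbered 35 and 2.

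Crest glia is another cell type that shares *Sox10* with melanocytes, and 13 of its markers were read in the melanocytes. They summed to 359.7 CPM and 414 CPM, to 400.2 CPM and 483 CPM without the cells with other RNA, and to 310.4 CPM and 425 CPM in the other cells. Of 7 that could be compared, *Cdh19* and *S100b* were at least 2-fold above the other cells in both libraries, and *Fabp7*, *Gap43*, *Sox2* and *Pou3f1* were at least 2-fold below. *Dhh*, a Schwann cell signal, had 0 UMIs in the melanocytes of both libraries.

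*Cdh19*, a cadherin of crest derivatives, stood at 124 CPM in humWT melanocytes and 102 CPM in humdG melanocytes, against 3.86 CPM and 2.48 CPM in the other cells. *S100b*, a calcium-binding protein of glia and melanocytes, stood at 127 CPM and 158 CPM, against 24.8 CPM and 10.95 CPM. *Pou3f1*, a factor of Schwann cells before myelination, stood at 3.74 CPM and 6.78 CPM, against 14.2 CPM and 24.97 CPM.

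Of 12 adhesion genes compared, *Cdh19*, *Cdh1*, *Itga4* and *Itga9* were at least 2-fold above the other cells in both libraries, and the mesenchymal cadherins *Cdh6* and *Cdh11* were at least 2-fold below. *Itga4*, the α4 integrin gene, stood at 126 CPM and 68.7 CPM against 15.9 CPM and 11.04 CPM. *Cdh3*, the P-cadherin gene of RPE, stood at 98.9 CPM and 8.71 CPM in all melanocytes but at 16.4 CPM and 1.43 CPM without the cells with other RNA. Of 13 Notch and Wnt genes 0 were above the other cells and 5 were below (*Hes1*, *Rbpj*, *Dll1*, *Jag1* and *Dkk2*). Over all genes compared, 5.84% were above and 4.83% below. Of 7 glycolysis genes 0 were above or below.

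The melanocytes differed among themselves. *Dct*, *Mitf* and *Ednrb* were found in nearly all of them. *Dct* ranged from 438 CPM to 35333 CPM over the 66 humWT cells with a median of 15042 CPM, and from 525 CPM to 55693 CPM over the 35 humdG cells with a median of 16420 CPM. Without the cells with other RNA the lowest cells stood at 4889 CPM and 5961 CPM, and *Dct* is part of the rule. *Mitf* was found in 64 of 66 and 35 of 35 cells, with medians of 587 CPM and 570 CPM, and *Ednrb* in 64 of 66 and 35 of 35, with medians of 500.3 CPM and 905 CPM. *Slc45a2* was found in 59 of 66 and 34 of 35, and *Mlph* in 54 of 66 and 34 of 35.

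*Cck* was different. It was found in 26 of 66 and 15 of 35 melanocytes, and 3 cells held 56.2% of its UMIs in humWT and 66.8% in humdG. Its highest cells stood at 5599 CPM and 7787 CPM, while the median cell held 0 UMIs. After thinning to 2000 UMIs *Cck* remained in 16.9% (8.76 to 28.3) and 28.6% (14.6 to 46.3) of melanocytes, and in none of 455 and 334 red blood cells. *Car4* was found in 32 of 66 and 18 of 35 cells. Both were found in 13 humWT cells, *Cck* alone in 13, *Car4* alone in 19 and neither in 21. In humdG these numbers were 8, 7, 10 and 10.

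Cells with and without *Cck* had about the same depth, with medians of 27794 and 29430 UMIs in humWT and 25442 and 24336 in humdG. *Kcnj13* stood at 504 CPM in humWT cells with *Cck* (453 to 558) and 108 CPM in those without (89.97 to 129). In humdG the values were 450 CPM (384 to 525) and 318 CPM (277 to 364), and without the cells with other RNA 474 CPM and 423 CPM, whose intervals overlapped. *Car4* stood at 190 CPM with *Cck* and 203 CPM without in humWT, and at 178 CPM and 156 CPM in humdG. *Car6* stood at 66.2 CPM in humWT cells with *Cck* (48.8 to 87.8) and 120.4 CPM in those without (101 to 142), and in humdG at 88.9 CPM and 78.7 CPM, whose intervals overlapped. Without the cells with other RNA *Car6* stood at 65.9 CPM and 176 CPM in humWT, and at 85.6 CPM and 124 CPM in humdG. *Kit* stood at 116 CPM and 114 CPM in humWT and at 119.5 CPM and 96.6 CPM in humdG. The intervals of *Kcnj13* and *Car6* thus lay apart both with and without the cells with other RNA in humWT alone. These intervals leave out the spread between cells, and 3 humWT melanocytes held 32.3% of the *Kcnj13* UMIs.

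**Figure D4:**
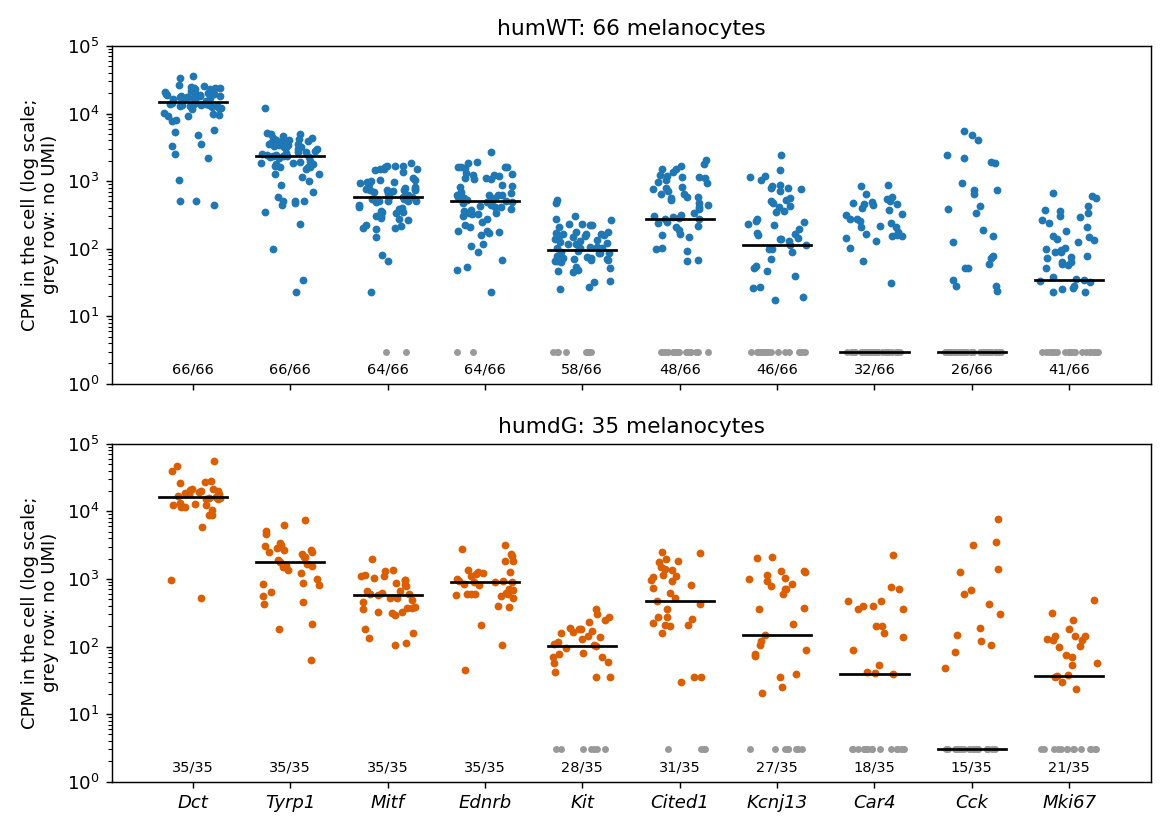
CPM per melanocyte of 10 genes on a log axis, 1 panel per library, with black bars at the median, the number of cells with a UMI of all cells, and cells without a UMI in the grey row. *Dct*, *Tyrp1* and *Mitf* are spread over nearly all cells, while *Cck* is held by 26 of 66 and 15 of 35 cells and *Car4* by 32 of 66 and 18 of 35.

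Genes of the cell cycle were held unevenly among the melanocytes. Of 16 cell cycle genes 0 were at least 2-fold above or below the other cells in both libraries. *Birc5*, *Pcna* and *Mcm7* were at least 2-fold above RPE, 3 of 16, where 6.08% of all genes compared were. At least 0.2% of UMIs in that list was held by 15 of 66 humWT and 4 of 35 humdG melanocytes, a range and not a cell type, with 5 and 6 cells near the limit. *Mki67*, a protein of dividing nuclei, belongs to the list that divides the cells, so its difference is set by that choice. It stood at 312 CPM in those 15 cells against 40.1 CPM in the others, and at 282 CPM in the 4 against 69.0 CPM. *Dct* stood at 14155 CPM against 14566 CPM in humWT and at 14507 CPM against 13069 CPM in humdG. Without the cells with other RNA it stood at 14628 CPM against 18463 CPM in humWT and at 17123 CPM against 17294 CPM in humdG.

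The cells high in the list were deeper, with medians of 44023 against 24154 UMIs and 39917 against 23569. After thinning to 2000 UMIs, *Mki67* or *Top2a* was found in 29.2% of humWT melanocytes (18.6 to 41.8) and 25.7% of humdG melanocytes (12.5 to 43.3). The shares before thinning were 71.2% and 74.3%. Red blood cells held either gene in 31.6% and 41.6% of cells after thinning, so the thinned shares in melanocytes did not exceed those in red blood cells and are not read as cycling. Whether these UMIs of red blood cells were free RNA or their own was not tested. *S100b* was lower in the humWT cells high in the list (49.6 CPM against 166 CPM) and higher in those of humdG (259 CPM against 137 CPM), so it had no common direction.

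Of the G1 regulators, *Ccnd1*, *Cdk8*, *Cdkn1a* and *Cdkn1c* were at least 2-fold below the other cells in both libraries, 4 of 10, and 0 were above. Over all genes compared, 4.83% were below and 5.84% above the other cells, and 7.18% were below and 6.08% above RPE. Against RPE, *Cdk4* and *Rb1* were at least 2-fold above in both libraries, 2 of 9 compared, and *Cdk8* was 1 of 9 below, at 0.253 and 0.282 of its RPE level. *Cdkn2a* and *Cdkn2b*, inhibitors that hold melanocytes in arrest, had 0 and 1 UMIs in humWT and 0 in humdG, too few to compare.

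Between the genotypes, the genes of the rule and *Kit* differed by less than 2-fold in melanocytes. All but *Kit* and *Mitf* among the genes given here chose the cells in both libraries, so their ratios are a description and are partly set by the choice. The log2 ratio of humdG to humWT was -0.12 for *Dct* (-0.15 to -0.09), 0.01 for *Pmel* (-0.03 to 0.05), 0.02 for *Mlana* (-0.10 to 0.13), -0.20 for *Tyr* (-0.32 to -0.07) and -0.14 for *Kit* (-0.48 to 0.20). *Mitf* stood at -0.22 (-0.37 to -0.08), and at -0.04 (-0.20 to 0.12) without the cells with other RNA. *Sox10* and *Pax3* stood at 0.09 and -0.08. Without the cells with other RNA *Dct* was not lower in humdG. It then stood at 17074 CPM and 16841 CPM in humWT cells with and without *Cck*, and at 17162 CPM and 17349 CPM in those of humdG. The median ratio of the 7 melanocyte markers turned from -0.08 to 0.10 when those cells were left out. The median over all genes counted was 0.08. In the other cells *Dct*, *Mitf* and *Pax3* stood at -0.75, -0.96 and -1.23.

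An enzyme and a pair of carriers of the pigment program were lower in humdG by less than 2-fold. *Tyrp1* stood at a log2 ratio of -0.62 (-0.70 to -0.54), and at -0.38 (-0.46 to -0.29) without the cells with other RNA. *Slc45a2* stood at -0.66 (-0.83 to -0.49) and -0.45, and *Oca2* at -0.43 (-0.58 to -0.28) and -0.26. All 3 were lower in humdG in the other cells as well, at -0.35 for *Tyrp1*, -0.75 (-0.94 to -0.56) for *Slc45a2* and -1.16 for *Oca2*. *Ednrb* was higher, at 0.32 (0.19 to 0.46) and 0.40, and *Kcnj13* at 0.48 (0.28 to 0.67) and 0.67. These intervals cover counting error only. Of 9 genes of the melanin list only *Mc1r* differed by 2-fold or more, with 11 and 14 UMIs.

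At least 2-fold higher in humdG melanocytes were 870 of 10969 genes with at least 20 UMIs in both libraries together (7.93%), and 442 (4.03%) were at least 2-fold lower. Without the cells with other RNA, 329 of 9199 (3.58%) were higher and 413 (4.49%) lower. The balance of higher and lower genes therefore turned with those 16 and 5 cells. Without the single humdG cell of 177084 UMIs, 258 were higher and 728 lower. Of 7 melanocyte markers, 6 of which chose the cells, 0 passed 2-fold in either direction. Of 19 melanosome genes, *Pmel* and *Mlana* of the rule among them, only *Rab32* passed it (lower, 45 and 9 UMIs), and of 18 other lineage genes only *St8sia6* (lower, 21 and 4 UMIs). Without the cells with other RNA, 1 of 18 melanosome genes was higher and 1 lower, and 1 of 17 other lineage genes was higher and 1 lower. Of 11 lineage transcription factors 1 was higher and 0 lower, and without those cells 1 and 0 of 10. For 11 receptors the counts were 1 and 0, and without those cells 1 and 2.

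Most compared genes of the RPE, retina and blood lists differed between the genotypes by at least 2-fold. Of 13 RPE markers 12 were at least 2-fold lower in humdG melanocytes, but without the cells with other RNA only *Rdh10* was, of 5 that could be compared, on 23 and 3 UMIs. *Myrf*, the gene of the variant, stood at -2.46 (-3.97 to -1.26) in all melanocytes, from 60 and 6 UMIs, and at -0.05 (-0.41 to 0.31) in the RPE gate. Of 12 retina markers 10 were at least 2-fold higher in humdG, and without those cells 7 of 9 were. *Pax6*, a master gene of the retina and eye, stood at 2.54 (2.14 to 2.96), but 1 cell held 73.0% of its humdG UMIs. Without the cells with other RNA *Pax6* stood at 2.07 (1.29 to 2.89), in the other cells at 1.29 and in red blood cells at 1.12. The summed retina list did not exceed that of red blood cells in either library (235 CPM against 400.0 CPM in humWT, 858 CPM against 914 CPM in humdG). Red blood cells were shallower, so this does not show how much of the list in melanocytes was free RNA.

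Of 11 mesenchyme markers 5 were at least 2-fold lower in humdG melanocytes, and without the cells with other RNA all 7 that could be compared were. *Col1a1*, a chain of collagen type I, stood at -1.37 (-1.49 to -1.24) in melanocytes and at -1.20 in the other cells. All 4 blood genes compared were at least 2-fold higher in humdG, and 0 of 4 without those cells. *Hbb-bs*, an adult globin gene, stood at 1.32 in all melanocytes and 0.43 without them. Of 4 muscle genes 2 were lower, and 3 of 3 without those cells. Among adhesion genes 3 of 11 were higher and 1 lower, and among Notch and Wnt genes 3 of 12 and 1 (7.93% and 4.03% of all genes counted). Without those cells the counts were 2 and 1 of 11, and 2 and 0 of 9 (3.58% and 4.49%). The part of free RNA and of the other cells in these ratios was not tested.

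**Figure D5:**
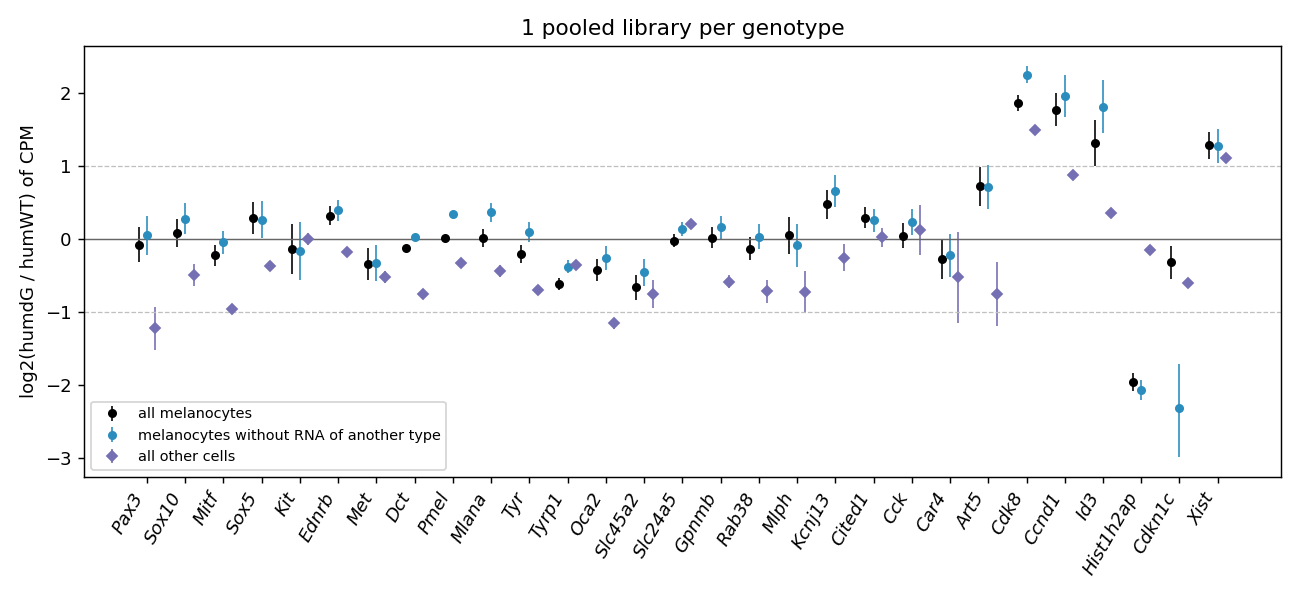
Log2 ratio of humdG to humWT of 29 genes in all melanocytes, melanocytes without RNA of another type and all other cells, with 95% counting intervals as bars and dashed lines at 2-fold. *Dct*, *Pmel* and *Kit* lie near 0 (-0.12, 0.01 and -0.14), while *Cdk8* lies at 1.87 and *Hist1h2ap* at -1.96.

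Genes at the ends of the ratio were taken among 5103 genes with at least 100 melanocyte UMIs, leaving out 1855 in which 1 cell held over 20% of the UMIs of the higher library. The highest was *Cdk8*, a kinase of the Mediator complex, at 1.87 (1.75 to 1.98), from 523 CPM to 1905 CPM. It was higher in humdG in the other classes too, at 1.495 in the other cells, 1.71 (1.61 to 1.81) in RPE and 1.16 in red blood cells, where its level was 5161 CPM and 11498 CPM. *Id3*, an inhibitor of bHLH factors, followed at 1.32 (1.01 to 1.63), with 0.36 in the other cells and 1.91 in RPE. *Ift74*, a gene of transport in cilia, stood at 1.22, *Lnpk*, a gene of the endoplasmic reticulum, at 1.02, and *D7Ertd443e* at 1.02 (0.56 to 1.48), with -0.41 in the other cells. In RPE *Ift74* stood at 0.10 and *Lnpk* at -0.62 (-1.91 to 0.59).

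The lowest was *Sulf1*, a heparan sulfatase of mesenchyme, at -2.07 (-2.78 to -1.42), with *Ogn* at -1.91 and *Mfap4* at -1.75, both genes of the extracellular matrix. All 3 were also lower in the other cells, at -1.07, -1.07 and -0.69. In RPE *Ogn* was higher in humdG, at 0.58 (0.30 to 0.87), while *Sulf1* stood at 0.15 (-0.25 to 0.54) and *Mfap4* at -0.16 (-0.69 to 0.37). Most of their humWT UMIs came from the 16 cells with other RNA: without these, *Sulf1* fell from 167 to 38 UMIs, *Ogn* from 198 to 24 and *Mfap4* from 152 to 27, and humdG held 4, 2 and 0. Without cells that held *Rlbp1*, *Rpe65* or *Lrat*, the *Ogn* ratio was 0.0305 (-0.79 to 0.81). *Nek6*, a mitotic kinase, stood at -1.66 (-2.56 to -0.86), with -0.74 in the other cells. *Hist1h2ap*, a histone gene of S phase, stood at -1.96 (-2.09 to -1.84), from 2211 CPM to 567 CPM. In the other cells it stood at -0.15, but it was higher in humdG in RPE, at 1.10 (0.84 to 1.37), and in red blood cells, at 0.37 (0.25 to 0.49). Its UMIs sat in few cells, with 45.2% in 3 humWT cells and 62.5% in 3 humdG cells, and its median over cells was 156 CPM and 161 CPM.

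Cell cycle genes showed no common direction. Of 16, *Mcm3*, a helicase subunit of DNA replication, and *Rrm2*, which makes deoxynucleotides, were at least 2-fold lower in humdG, at -1.03 (-1.57 to -0.52) and -1.38 (-2.13 to -0.69). *Cenpf*, a kinetochore protein, stood at 0.98 (0.70 to 1.26). Of 9 G1 regulators, *Ccnd1*, *Cdk6* and *Cdk8* were at least 2-fold higher and 0 lower. Over all genes counted, 7.93% were higher and 4.03% lower. *Ccnd1*, the cyclin D1 gene, stood at 1.78 (1.55 to 2.01), with 0.87 in the other cells, and 61.7% of its humdG UMIs lay in 3 cells. *Cdkn1c*, an inhibitor of G1 kinases, stood at -0.32 in all melanocytes and at -2.33 (-3.00 to -1.72) without the cells with other RNA. In all humdG melanocytes 87.2% of its UMIs lay in 3 cells, and without the cells with other RNA 71.4% of its humWT UMIs did, where the medians over cells were 59.2 CPM in humWT and 26.7 CPM in humdG.

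Of 28 genes that the study names around MYRF in the RPE, 4 were at least 2-fold higher and 10 lower in humdG melanocytes (7.93% and 4.03% of all genes counted), and 4 and 4 of 22 without the cells with other RNA (3.58% and 4.49%). The 4 higher ones were *Ccnd1*, *Cdk8*, *Id1* and *Id3*, and the 4 lower ones *Col1a1*, *Col1a2*, *Col3a1* and *Cdh3*. That list was chosen by the study on these samples and is not independent of them. Against the other cells, 3 of 26 were at least 2-fold above in both libraries and 7 below (5.84% and 4.83% of all genes compared).

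The sexes of the pooled embryos differed between the libraries. *Xist*, the RNA of the inactive X chromosome, stood at 1.29 (1.10 to 1.48) in melanocytes and 1.11 in the other cells. In humWT 11 melanocytes held *Xist* and no Y-linked RNA, 29 held Y-linked RNA and no *Xist*, and 24 held both. In humdG these numbers were 11, 12 and 12. Sex and genotype cannot be told apart in these pools.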

How the data were processed

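The data were 3′ single-cell RNA libraries of eye cups at E17.5, 1 pool per genotype, of 129135207 and 114319529 UMIs over 17421 and 19565 barcodes. The authors deposited raw UMI counts, made with Cell Ranger 7.1.0 and mm10 per the submitters' processing notes; whether introns were counted is not given in the sources used here. Barcodes with over 500 genes and under 15% mitochondrial UMIs were kept (17017 and 19129). The study's filter of over 200 genes would leave 17142 and 19302, more cells than it states.

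Counts were summed per class and library (Python 3.11.15, numpy 2.4.6, scipy 1.17.1, pandas 2.3.3) and given as CPM. Scrublet ran in scanpy 1.11.5. RPE cells held *Rlbp1* and *Otx2*, at least 0.5% pigment RNA and neither *Pax3* nor *Sox10*; red blood cells held at least 20% globin. Genes were compared between genotypes with at least 20 melanocyte UMIs in both libraries together, and with other cells or RPE at a mean of at least 10 CPM over both classes and libraries. No test over cells was made, as cells are not replicates.

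Named genes were members of 21 lists (238 of 240 genes matched; *Asip* and *Aldoa* did not), the 20 leading genes and the 5 highest and lowest genotype ratios. Members and lists were chosen with earlier results of these data known. The count and interval steps were tested on simulated data. Alternatives covered cell filters, gates, doublets, thinning, scaling and minimum counts. A comparison with glia cells and 1 further choice of melanocytes are not reported here. Leaving out cells with other RNA and the largest cell was chosen after seeing the data.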

Additional observations from a re-analysis of the deposited data

Results flagged for a closer look

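*Art5* moved in opposite directions between the genotypes in melanocytes and in all other cells. Its log2 ratio of humdG to humWT was 0.72 (0.45 to 1.00) in melanocytes, and 0.71 without the cells with RNA of another type, against -0.75 (-1.19 to -0.32) in the other cells. It was singled out because the ratios lie on opposite sides of 0, each by over 1.5-fold, among 195 genes looked at. The difference between the classes was not tested, since each genotype is 1 library. The level in the other cells was low, at 1.04 CPM in humWT and 0.620 CPM in humdG.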

How the results depend on the processing

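No paired analysis was possible because each genotype has 1 library. The melanocyte share (0.388% and 0.183%) was 1.82% and 0.648% with *Pax3* or *Sox10*, 0.977% and 0.556% in cells with at least 5000 UMIs, 0.0916% and 0.0340% after thinning to 2000 UMIs, and 0.294% in humWT without cells with RNA of another type. Genes at least 2-fold below other cells (494) numbered 1096 with pigment RNA of at least 0.5%, 1118 without *Rlbp1*, *Rpe65* and *Lrat*, 1284 without cells with other RNA, and 930 without the largest humdG cell. Genes higher in humdG (870) numbered 416 with at least 50 UMIs, 398 by the mean over cells, 266 with 0.5% pigment RNA, 407 with *Pax3* or *Sox10*, 382 without *Rlbp1*, *Rpe65* and *Lrat*, 329 without cells with other RNA, 258 without the largest cell and 28 after thinning, when 226 genes in place of 10969 could be compared. Genes lower (442) numbered 213 with at least 50 UMIs, 922 by the mean over cells, 273 with at least 2 UMIs of each factor, 728 without the largest cell and 88 of those 226 after thinning. The thinned share with *Mki67* or *Top2a* in humdG (25.7%) was 8.57% at 1000 UMIs.

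Of 5558 gene values compared, 15 changed sign after being at least 2-fold under the main rule with an interval clear of no change. Sign changes of smaller values were not counted. With *Pax3* or *Sox10*, the log2 level against other cells became 0.0582 and 0.874 for *Sulf1*, 0.99 for *Ogn* and 3.65 for *Sfrp1* (both humdG), and the genotype ratio 0.26 for *Sfrp1* and 0.21 for *Bmp4*. The *Sfrp1* ratio was also 0.89 with 2 UMIs of each factor, 0.0661 without *Rlbp1*, *Rpe65* and *Lrat*, and 0.56 without cells with other RNA, and under the same settings the *Cdh3* level in humWT was -1.50, -1.46 and -1.42. The *Ogn* ratio was 0.0305 without *Rlbp1*, *Rpe65* and *Lrat*, the *Tfap2b* ratio -0.10 by the mean over cells, and the *Ankfn1* level in humWT -0.0196 without cells with other RNA. The cause was not tested. Counts against other cells are not given after thinning, since 1 UMI then exceeds 10 CPM.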
